A study of Mus musculus with 6 samples.

Results

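The genes described here are 9 epicardial identity genes, *Wt1*, *Tcf21*, *Tbx18*, *Bnc1*, *Upk3b*, *Upk1b*, *Msln*, *Krt19* and *Lrrn4*. They were taken by symbol from a table of gene counts for the mouse cardiac outflow tract (OFT), in which they are 9 of 28777 genes. All 9 were found, and all 9 passed the filter on low counts, which left 28157 genes for testing. The data are bulk RNA-Seq libraries of OFTs of E13.5 embryos, 3 labelled mutant, from *Notch1*+/-*; Nos3*-/- embryos, and 3 labelled wildtype, from littermates, all on a C57/BL6J background. Each library was made from 3 pooled OFTs, 18 in all, dissected so as to include the conal cushions. Both alleles are germline knockouts present in every cell of the embryo. Depth, as the total of all gene counts, was 44387490 for wildtype replicate 1, 43329291 for replicate 2 and 34729103 for replicate 3, and 38640033, 35551470 and 36917298 for the mutant replicates in the same order. Every member reached at least 8.71 CPM in each library (CPM, the count set against the library total after scaling by TMM factors), so all 9 markers of the label were detected in all 6 samples.

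The epicardium is the mesothelial sheet that covers the heart. It arises from the proepicardium, spreads over the myocardium and also clothes the OFT, and some of its cells undergo an epithelial-to-mesenchymal transition and enter the heart wall as fibroblasts and mural cells. Its cells share a gene program with the mesothelium of the pleura, pericardium and peritoneum, in which transcription factors such as *Wt1* are expressed beside surface proteins of the uroplakin and mesothelin families and simple epithelial keratins. The comparison of the 2 groups asks whether the level of this program in the OFT differs between the labelled genotypes.

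The targeted genes are given first, as a check of the labels. *Nos3* stood at 31.8, 47.2 and 48.1 CPM in the wildtype replicates and at 22.1, 21.98 and 20.4 CPM in the mutant replicates, so every library labelled mutant was below every library labelled wildtype, although its log2 fold change of −0.98 ± 0.15 (SE) had an adjusted p of 0.128 (edgeR) and was not called. The mutant embryos are labelled as having no intact copy of *Nos3*, yet a mean of 21.5 CPM remained, against 42.4 CPM in the wildtype libraries. *Notch1*, of which the mutant embryos are labelled as having 1 intact copy, stood at 74.3, 88.2 and 83.6 CPM in the wildtype and at 155, 161 and 139 CPM in the mutant replicates. *Notch1* was thus higher under the mutant label (log2 fold change 0.89 ± 0.10, SE, adjusted p = 0.0313 in the edgeR quasi-likelihood fit, Benjamini-Hochberg over all genes tested, higher in 3 of 3 libraries), opposite to the direction of a heterozygous loss. Whether reads of the targeted alleles of *Nos3* and *Notch1* are among the counts was not tested. Directions below are therefore those between libraries labelled mutant and libraries labelled wildtype. The sample titles and the sample descriptions swap the library identifiers of wildtype replicates 2 and 3. The numbers used here follow the titles and serve as names only, and both libraries carry the wildtype label either way.

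Some libraries stood apart in genes of other cell types. The summed level of 6 liver genes, of which *Afp* was the most abundant and none was at the floor of 3 counts in every library, was 97.0 CPM in wildtype replicate 2 and 26.7 CPM in wildtype replicate 3, and between 1.06 and 5.20 CPM in the other 4 libraries. The summed level of 7 erythroid genes, with *Hba-a2* the most abundant, was 11770 and 10090 CPM in wildtype replicates 2 and 3 and between 5289 and 6221 CPM in the others. The sum of 6 cushion mesenchyme genes, led by *Postn*, was 2196 and 1939 CPM in wildtype replicates 2 and 3, and 3941 CPM in wildtype replicate 1, which lay among the mutant replicates at 3903, 4040 and 3631 CPM. Of the 9 myocardial genes, led by *Myh7*, the sum was 19020, 19340 and 25430 CPM in the wildtype and 15790, 13680 and 18220 CPM in the mutant replicates. Wildtype replicate 1 was therefore closer to the mutant replicates than to its own group in blood, liver and cushion genes, and calls and medians that change without it are given both ways.

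None of the 9 epicardial identity genes passed the test between the groups. With edgeR (quasi-likelihood, called where the adjusted p is 0.05 or less), 0 of 9 were called, against 0.0213% of all genes (6 of 28157). At an unadjusted p under 0.05, 0 of 9 passed, against 16.1% of all genes. The count was also 0 with DESeq2's Wald test, which called 2.66% of all genes, and with limma-voom, which called 0.0178%. For 0 of the 9 did the groups lie apart without overlap in CPM, a pattern that 19.6% of all genes had. The fitted log2 fold changes lay between −0.27 and 0.14, with 2 above and 7 below 0, and their median was −0.09, where the median of all genes was 0.01. In bulk tissue a smaller number of epicardial cells and less RNA per epicardial cell cannot be told apart.

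**Figure D1:**
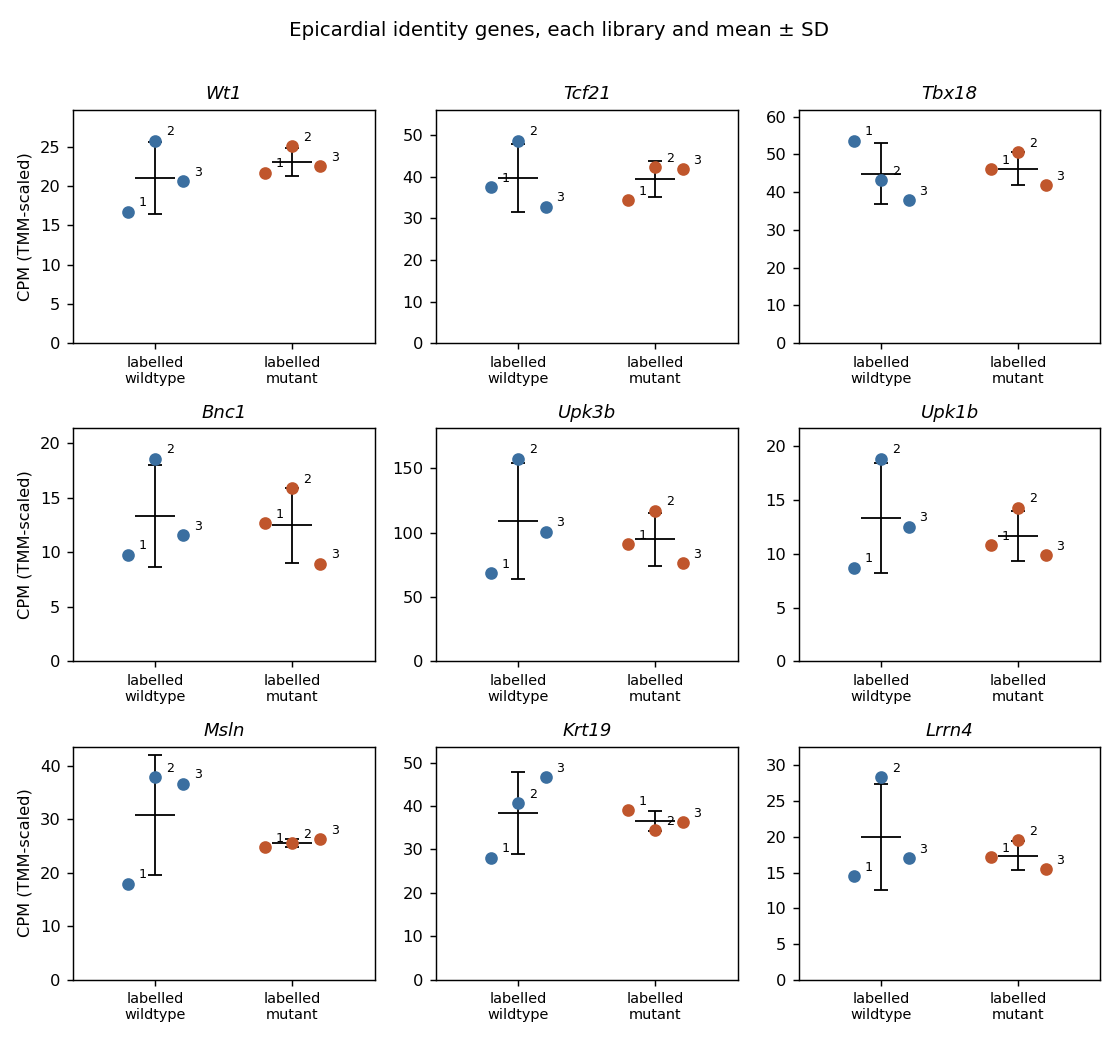
Level of each epicardial identity gene in CPM (vertical axis, from 0, TMM-scaled) in the 3 libraries labelled wildtype (blue) and the 3 labelled mutant (orange), with replicate numbers beside the points and horizontal bars and whiskers for the mean ± SD of 3 libraries. The groups overlap in all 9 panels, and for *Upk3b* the wildtype libraries run from 68.6 to 157.5 CPM around mutant libraries at 76.4 to 117.2 CPM.

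The 4 transcription factors had log2 fold changes between −0.09 and 0.14, and the sign of each turned with some library left out. *Wt1* turned to −0.007 without wildtype replicate 1, and *Tbx18* to −0.07 without wildtype replicate 3. Without wildtype replicate 2, *Tcf21* turned to 0.17 and *Bnc1* to 0.23. *Tcf21* also turned without mutant replicate 1, *Tbx18* without mutant replicate 2 and *Bnc1* without mutant replicate 3. *Wt1* (ENSMUSG00000016458, chr2:105126529-105173616, plus strand, mm10), the zinc finger factor of the Wilms tumor gene that the epicardium needs for its mesenchymal transition, was counted at 16.7, 25.8 and 20.6 CPM in the wildtype and 21.7, 25.1 and 22.5 CPM in the mutant replicates. Wildtype replicate 1 was the lowest and wildtype replicate 2 the highest of the 6, with the mutant libraries between them. The log2 fold change was 0.14 ± 0.15 (SE), with a 95% interval from −0.20 to 0.47.

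*Tcf21* (ENSMUSG00000045680, chr10:22817281-22820174, minus strand), a basic helix-loop-helix factor needed for cardiac fibroblasts to form from the epicardium, stood at 37.4, 48.7 and 32.8 CPM in the wildtype and 34.4, 42.3 and 41.7 CPM in the mutant replicates. All 3 mutant libraries lay inside the wildtype range, and the log2 fold change was −0.01 ± 0.15. *Tbx18* (ENSMUSG00000032419, chr9:87702800-87731260, minus strand), a T-box factor of the proepicardium and epicardium that is also made in the sinus horn, stood at 53.7, 43.1 and 37.8 CPM in the wildtype and 46.1, 50.5 and 41.8 CPM in the mutant replicates. It was the only member that was highest in wildtype replicate 1, the library in which 6 of the 9 members were lowest. Its log2 fold change was 0.04 ± 0.13, with an interval from −0.26 to 0.33.

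*Bnc1* (ENSMUSG00000025105, chr7:81966672-81992292, minus strand), the zinc finger factor basonuclin of epithelial and mesothelial cells, stood at 9.79, 18.6 and 11.6 CPM in the wildtype and 12.6, 15.8 and 8.96 CPM in the mutant replicates. Its highest library was wildtype replicate 2 and its lowest mutant replicate 3, so both groups held high and low values. The log2 fold change was −0.09 ± 0.25. *Tbx18* shares 970 exon bases with the antisense gene *D030062O11Rik* and *Bnc1* shares 98 with *4833418N17Rik*, and since the use of strand in the counting is not stated, part of these counts may belong to the antisense genes. *Tcf21* overlaps *Gm10824* on the opposite strand with 0 shared exon bases.

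The 5 surface and cytoskeletal genes had fitted log2 fold changes below 0 that did not pass the test. The sign turned for *Krt19* with scaling by library size only or without wildtype replicate 3, and for *Upk3b*, *Upk1b* and *Lrrn4* without wildtype replicate 2. *Upk3b* (ENSMUSG00000042985, chr5:136038496-136046487, plus strand), which encodes a uroplakin, a membrane protein of urothelium and mesothelium, stood at 68.6, 157.5 and 100.9 CPM in the wildtype and 91.1, 117.2 and 76.4 CPM in the mutant replicates. The wildtype replicates alone spanned more than the whole mutant group. The mean was 109 ± 45.0 CPM in the wildtype and 94.9 ± 20.7 CPM in the mutant libraries (SD, n = 3 each), and the log2 fold change was −0.20 ± 0.25 (SE, adjusted p = 0.741, edgeR, interval from −0.76 to 0.36).

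*Upk1b* (ENSMUSG00000049436, chr16:38773184-38800328, minus strand), a tetraspanin that pairs with a uroplakin of the Upk3 kind in the urothelial membrane, stood at 8.71, 18.8 and 12.5 CPM in the wildtype and 10.8, 14.3 and 9.84 CPM in the mutant replicates. The order of the 6 libraries was the same as for *Upk3b*, with wildtype replicate 2 and mutant replicate 2 at the top and wildtype replicate 1 at the bottom. Its log2 fold change was −0.20 ± 0.25.

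*Msln* (ENSMUSG00000063011, chr17:25748613-25754378, minus strand) encodes mesothelin, a surface protein anchored by a lipid on mesothelial cells. It stood at 17.9, 37.9 and 36.6 CPM in the wildtype and at 24.8, 25.5 and 26.3 CPM in the mutant replicates. The mutant libraries were almost level, and the wildtype libraries lay on both sides of them, with replicate 1 below and replicates 2 and 3 above. Over all libraries the log2 fold change was −0.27 ± 0.22, with an adjusted p of 0.585 (edgeR), the lowest of the 9. Without wildtype replicate 1 *Msln* was called at a log2 fold change of −0.55 (adjusted p = 0.0176, edgeR, lower in 3 of 3 mutant libraries), 1 of 9 members, in a fit that called 9.45% of all genes (2593 of 27450). Without wildtype replicate 2 its log2 fold change was −0.09 and was not called.

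*Krt19* (ENSMUSG00000020911, chr11:100140810-100148665, minus strand), a type I keratin of simple epithelia and mesothelium, stood at 28.1, 40.7 and 46.7 CPM in the wildtype and 39.0, 34.4 and 36.3 CPM in the mutant replicates. It was the only member that was highest in wildtype replicate 3. *Lrrn4* (ENSMUSG00000043110, chr2:132868305-132880891, minus strand), a leucine-rich repeat membrane protein used as a marker of mesothelial cells, stood at 14.4, 28.4 and 17.0 CPM in the wildtype and 17.1, 19.5 and 15.5 CPM in the mutant replicates. Apart from wildtype replicate 2, its 5 other libraries fell between 14.4 and 19.5 CPM. The log2 fold changes were −0.07 ± 0.16 for *Krt19* and −0.20 ± 0.22 for *Lrrn4*. Two-sided exact permutation tests of log2 of CPM plus 0.5 gave p between 0.5 and 1 for the 9 members, where 3 libraries against 3 cannot give less than 0.1.

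Counting error was small beside the differences between the wildtype libraries. It was not small beside the spread of *Msln* in the mutant libraries, where the SD of log2 CPM was 0.0408, the lowest of the members. The highest SD in the mutant libraries was 0.397, for *Bnc1*. The lowest count of any member in any library was 338, for *Bnc1*, which gives a counting SD of 5.44%, and *Upk3b* was counted between 2879 and 6540 times. The median over the members of the SD of log2 CPM within a group was 0.462 in the wildtype and 0.164 in the mutant libraries, against 0.147 and 0.0994 for the 13089 genes whose mean level was 5 CPM or more. In 9 of 9 members the wildtype libraries were spread more widely than the mutant libraries, as in 67.5% of those genes.

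Compared per kb of exon, *Upk3b* was the most abundant member, at 28.9 ± 9.15 CPM per kb (mean ± SD over the 6 libraries), and it was above *Krt19*, at 20.2 ± 3.37, in 6 of 6 libraries. *Krt19* was above *Tcf21*, at 16.8 ± 2.50 CPM per kb, in 5 of 6 libraries, so these neighbours were not separated beyond their spread. Below them came a step: the lowest *Tcf21* level, 13.96 CPM per kb, exceeded the highest *Tbx18* level, 11.4 CPM per kb, and this was the only pair of neighbours whose ranges did not overlap. *Tbx18* (9.65 ± 1.24 CPM per kb) and *Msln* (9.20 ± 2.50) exchanged places between libraries, with *Tbx18* above in 4 of 6. *Upk1b* at 5.98 ± 1.76, *Lrrn4* at 5.02 ± 1.36, *Wt1* at 3.56 ± 0.53 and *Bnc1* at 2.78 ± 0.793 CPM per kb followed, each above the next in 6 of 6 libraries although the ranges overlapped.  Exon lengths between 1.85 kb for *Krt19* and 6.20 kb for *Wt1* were those of all annotated transcripts joined, and the transcripts in use were not examined.

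In each of the 9 members the SD of log2 CPM between the wildtype libraries exceeded the size of the fitted difference between the groups. The highest library exceeded the lowest by 2.30 times for *Upk3b*, a ratio larger than that of 95.9% of the same 13089 genes, and by 2.16 times for *Upk1b*, 2.12 for *Msln*, 2.07 for *Bnc1* and 1.97 for *Lrrn4*. It was 1.66 times for *Krt19*, 1.54 for *Wt1*, 1.48 for *Tcf21* and 1.42 for *Tbx18*, where the median gene had 1.35. *Wt1*, *Tcf21* and *Tbx18* therefore varied least, and *Bnc1* varied as the surface genes did. Of the 9 members 7 were highest in wildtype replicate 2, which was the highest library for 17.0% of genes, and 6 were lowest in wildtype replicate 1, the lowest for 16.5%. As the median over the members of log2 CPM minus the mean of each gene, wildtype replicates 1, 2 and 3 stood at −0.38, 0.47 and −0.09 and mutant replicates 1, 2 and 3 at −0.09, 0.16 and −0.11.

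The sign of the median changed when wildtype replicate 2 was left out. Without wildtype replicate 1 the median log2 fold change was −0.28, and without mutant replicate 2 it was −0.27, each with 1 member above and 8 below 0. Without wildtype replicate 2 it was 0.14, with 7 above and 2 below 0. With scaling by library size alone, which moved the median of all genes to 0.11, the median of the members was 0.02, with 5 above and 4 below 0. No member was called without wildtype replicate 2 or with scaling by library size alone.

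Wildtype replicates 1 and 2 were also the lowest and highest libraries of the macrophage and erythroid lists, while the liver list was lowest in mutant replicate 3, and the myocardial, cushion, smooth muscle, endothelial, endoderm and neural crest lists had other pairs of extreme libraries. The macrophage list, 5 genes led by *Csf1r* with none at the floor of 3 counts, summed to 71.1, 123 and 89.6 CPM in the wildtype and 84.2, 103 and 97.6 CPM in the mutant replicates, so that its lowest and highest libraries were those of most members. All 7 erythroid and all 6 liver genes were highest in wildtype replicate 2. The part of these cells in the values of the members was not tested. Of other tissues that express members, the gonad and kidney were represented by *Nphs1* at 0.472 to 1.07 CPM (21 to 43 counts). *Amh* was at 5 to 26 counts and *Nr5a1* at 2 or fewer counts in every library. The kidney factors *Pax2*, *Pax8* and *Lhx1* were not found by symbol among the genes listed. The endoderm list, led by *Grhl2*, summed to 1.17 to 2.65 CPM over 5 genes, with *Foxa2* and *Nkx2-1* at 2 or fewer counts in every library. *Krt19* stood at 28.1 CPM or more, and the part of endoderm in its level was not tested.

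**Figure D2:**
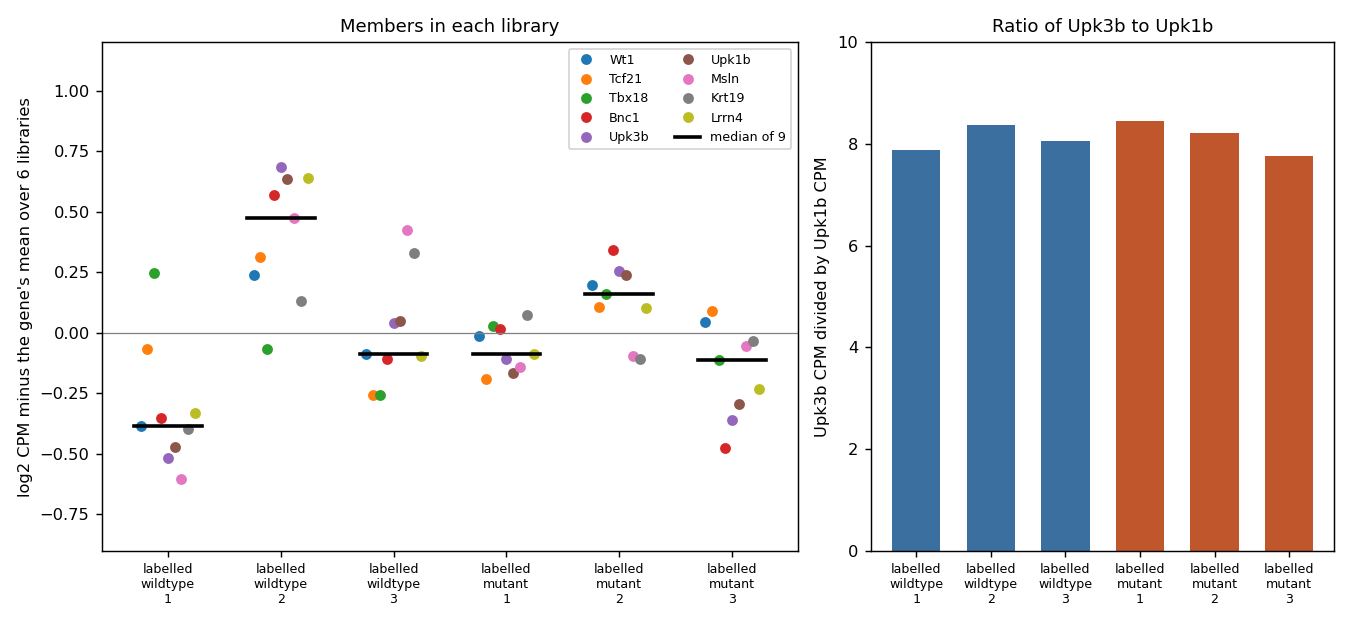
Left, log2 CPM of each epicardial identity gene minus its mean over the 6 libraries (vertical axis), by library (horizontal axis), with black bars for the median of the 9 genes, which is lowest in the library labelled wildtype 1 (−0.38) and highest in wildtype 2 (0.47). Right, *Upk3b* CPM divided by *Upk1b* CPM in each library (bars from 0), which stays between 7.76 and 8.46 in wildtype (blue) and mutant (orange) libraries alike.

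Members kept fixed proportions to different degrees. The ratio of *Upk3b* to *Upk1b* CPM was 7.88, 8.37 and 8.07 in the wildtype and 8.46, 8.21 and 7.76 in the mutant replicates, while each gene alone varied by over 2 times. The SD of the log2 ratio, 0.049, was the smallest of the 36 pairs of members and below the 0.0718 that counting error alone gives for these counts, so any variation of the ratio was not detectable at this depth. Against *Upk3b* as the reference, chosen after its values were seen, *Upk1b* ranked first among 13088 genes. *Dlk1* (SD 0.0666), *Lrp2* (0.0937), *Krt7* (0.118) and *Crb2* (0.13) came next, then the members *Lrrn4* at rank 6 and *Bnc1* at rank 7, where the median gene had 0.469. The uroplakin genes *Upk3b* and *Upk1b* lie on different chromosomes, 5 and 16.

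The other members followed *Upk3b* less closely. *Wt1* ranked 231, *Msln* 257, *Tcf21* 1493, *Krt19* 1598 and *Tbx18* 9383 by the same measure. The SD for *Tbx18* was 0.515, so *Tbx18* followed *Upk3b* less closely than the median gene did (0.469). The largest SD of the 36 pairs was that of *Tbx18* to *Msln*, 0.563, with ratios from 1.03 in wildtype replicate 3 to 2.99 in wildtype replicate 1. *Wt1* and *Tcf21* (SD 0.189) and *Msln* and *Krt19* (0.207) were the nearest pairs outside the group of *Upk3b*, *Upk1b*, *Lrrn4* and *Bnc1*, whose 6 pairs had an SD of 0.164 or less.

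Outside the members, the genes whose 6 libraries lay nearest to the median pattern of the 9 were *Nbl1*, *C1qb*, *Gpm6a*, *Gm11979* and *Saysd1*, with root mean square differences of 0.0591, 0.0653, 0.0687, 0.075 and 0.0785 on the log2 scale. The median over 13080 genes was 0.31, and among the members themselves the difference ran from 0.0904 for *Lrrn4* to 0.349 for *Tbx18*. *Gpm6a*, a membrane glycoprotein that was on the list of further epicardial and mesothelial genes, stood at 9.18, 15.9 and 10.5 CPM in the wildtype and 9.87, 11.7 and 10.1 CPM in the mutant replicates. *C1qb*, a complement gene of macrophages, stood at 14.6, 27.9 and 18.9 CPM in the wildtype and 18.0, 22.3 and 20.2 CPM in the mutant replicates.

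Of 20 further genes of epicardium and mesothelium, 0 were called by edgeR or by DESeq2's Wald test (0.0213% and 2.66% of all genes). An unadjusted p under 0.05 in edgeR was reached by 3 of them, as by 16.1% of all genes. With 6 above and 14 below 0 and a median log2 fold change of −0.06, they were close to the members, and 14 of the 20 were highest in wildtype replicate 2. Their median was −0.28 without wildtype replicate 1 and 0.15 without wildtype replicate 2. The groups were apart for 2 of the 20, both lower under the mutant label, where 8.94% of all genes were apart in that direction. *Krt18*, a keratin of simple epithelia, was 1 of them, at 19.9, 26.9 and 25.7 CPM in the wildtype and 18.8, 19.8 and 17.5 CPM in the mutant replicates (log2 fold change −0.37 ± 0.13, adjusted p = 0.234, edgeR). The other was *Efemp1*, named after its values were seen.

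*Aldh1a2*, the enzyme that makes retinoic acid in the epicardium, stood at 22.2, 39.9 and 28.4 CPM in the wildtype and 20.4, 28.7 and 20.2 CPM in the mutant replicates, with a log2 fold change of −0.38 ± 0.20 (−0.56 without wildtype replicate 1 and −0.13 without wildtype replicate 2) and overlapping groups. The complement gene *C3* was lowest of the list at −0.47 ± 0.32, and at −0.71 without wildtype replicate 1 and −0.18 without wildtype replicate 2. The 3 highest were *Aldh1a1* at 0.38 ± 0.25, *Itga4*, the integrin subunit that binds Vcam1 and holds the epicardium to the myocardium, at 0.34 ± 0.22, and *Cldn1* at 0.06 ± 0.31. Without wildtype replicate 1 these were 0.65, 0.59 and −0.19, and without wildtype replicate 2 they were 0.31, 0.36 and 0.26, none called. In the fit without wildtype replicate 1, 3 of the 20 were called, *Muc16* at −0.50, *Krt18* at −0.49 and *Ezr* at −0.46, each lower under the mutant label, where 9.45% of all genes were called. Over all 6 libraries these were −0.26, −0.37 and −0.34, and without wildtype replicate 2 they were −0.04, −0.29 and −0.34, none called.

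Of 12 genes of the mesenchyme that the epicardium gives rise to, 11 were above 0 and 1 below, the median log2 fold change was 0.56 (0.91 without wildtype replicate 1 and 0.35 without wildtype replicate 3), and 9 had an unadjusted p under 0.05, against 16.1% of all genes. None of the 12 was called by edgeR (lowest adjusted p 0.196), and 3 were called by DESeq2's Wald test (*Snai1* at 0.91, *Ddr2* at 0.75 and *Col1a1* at 0.56), against 2.66% of all genes. Without wildtype replicate 1 edgeR called 11 of the 12, against 9.45% of all genes, and without wildtype replicate 2 it called 0. For 3 the groups were apart, all with the mutant label higher, where 10.7% of all genes were apart in that direction. Cushion mesenchyme expresses these genes too, *Twist1*, *Postn* and *Pdgfra* stood on both lists, and the cushion sums given above moved the same way, so the epicardial share of the difference was not tested.

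*Snai1*, a repressor of E-cadherin in mesenchymal transition, had the highest value of this list, 0.91 ± 0.28, with a mean of 9.03 ± 4.09 CPM in the wildtype and 17.1 ± 4.15 CPM in the mutant libraries (SD, n = 3 each). *Ddr2*, a collagen receptor of fibroblasts, followed at 0.75 ± 0.24 and stood at 37.0, 24.9 and 15.8 CPM against 43.0, 50.3 and 37.5 CPM, with the groups apart. *Twist1* was at 0.65 ± 0.26. Without wildtype replicate 1 they stood at 1.32, 1.10 and 1.05, each called by edgeR. Wildtype replicate 1 was nearest to the mutant libraries in all 3 genes, so leaving it out widens the differences by construction. The calls made without it are therefore no separate support. Without wildtype replicate 2 the 3 genes stood at 0.84, 0.72 and 0.59, none called. The lowest were *Dcn* at 0.40 ± 0.14, *Snai2* at 0.28 ± 0.32 and *Tgfbr3*, the type III receptor for Tgf-β that is needed for epicardial cells to invade, at −0.90 ± 0.30. Without wildtype replicate 1 *Snai2* was called at 0.88 and *Tgfbr3* at −1.12, and *Snai2* was at 0.12 without wildtype replicate 2. *Tgfbr3* stood at 25.4, 32.1 and 56.4 CPM in the wildtype and 19.1, 13.6 and 28.4 CPM in the mutant replicates, and the groups overlapped through mutant replicate 3.

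Of 12 genes that carry signals between epicardium and myocardium, *Fgf20* and *Shh* were not found by symbol, and the 10 others were tested. None was called by edgeR or DESeq2 (0.0213% and 2.66% of all genes), 2 had an unadjusted p under 0.05 (16.1% of all genes), 3 were above and 7 below 0, and the median log2 fold change was −0.08. The highest were the fibroblast growth factor receptors *Fgfr2* (0.85 ± 0.35) and *Fgfr1* (0.38 ± 0.13), followed by *Igf1r* (0.12 ± 0.11, 0.24 without wildtype replicate 1 and 0.04 without wildtype replicate 2). *Fgfr2* stood at 97.1, 39.9 and 29.2 CPM in the wildtype and 110, 109 and 80.6 CPM in the mutant replicates, with wildtype replicate 1 inside the mutant range. Both receptors were called without wildtype replicate 1, at 1.53 and 0.49, in the fit that called 9.45% of all genes. Without wildtype replicate 2 *Fgfr2* was at 0.66 and *Fgfr1* at 0.38, and neither was called. The lowest were *Fgf9*, a ligand made by epicardium and endocardium, at −0.40 ± 0.29, *Tmsb4x* at −0.16 ± 0.12 (−0.04 without wildtype replicate 2) and *Itgb1* at −0.11 ± 0.10 (−0.05 without wildtype replicate 1).

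Of 12 relatives of the members by gene family 9 were tested, of which 0 were called by edgeR or DESeq2 and 1 had an unadjusted p under 0.05, where all genes had 0.0213%, 2.66% and 16.1%. Only *Lrrn1*, *Lrrn2* and *Lrrn3*, the paralogs of *Lrrn4*, reached a mean of 1 CPM, at 2.35, 4.03 and 1.59 CPM per kb of exon against 5.02 for *Lrrn4*. Their log2 fold changes were 0.73 ± 0.39, 0.15 ± 0.16 and −0.54 ± 0.16, and without wildtype replicate 1 they were 1.26, 0.30 and −0.49, none called. *Lrrn3* stood at 7.67, 6.43 and 7.67 CPM in the wildtype and 5.40, 4.38 and 5.22 CPM in the mutant replicates, with the groups apart (adjusted p = 0.198, edgeR). *Upk2* and *Upk3a*, the other urothelial uroplakins, were not found by symbol, and *Upk1a* was between 0.339 and 0.694 CPM in the 6 libraries.

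Promoter sequences from RefSeq (GRCm38.p6, 250 bases before to 50 after the start of the gene, 300 in all) were given for 5 of the 9 members, *Tcf21*, *Tbx18*, *Bnc1*, *Upk3b* and *Lrrn4*, and not for *Wt1*, *Upk1b*, *Msln* and *Krt19*. They were searched on both strands for GGAATG, the core bound by TEAD factors, for GCGGGGGCG, a core shared by WT1 and EGR factors, and for the E-box CANNTG, the kind of site bound by basic helix-loop-helix factors such as *Tcf21*. GGAATG was found in 2 of the 5, *Upk3b* and *Lrrn4*, and in 14.7% of all 32851 promoters. GCGGGGGCG was found in 0 of 5 and in 2.91% of all, and CANNTG in 2 of 5, *Tbx18* and *Upk3b*, and in 72.3% of all. No match overlapped a match to another of the 3 motifs. The GC content was 83.3% for *Bnc1* and between 51.7% and 58.7% for the other 4, where the median promoter had 52.7%. The promoters of *Tcf21*, *Tbx18* and *Bnc1* had no GGAATG, and a link between these motifs and the levels of the members was not tested. The stretches around GGAATG are shown as the matches found, with the match in capitals, written 5′ to 3′ on the strand of the gene. In *Upk3b* (chr5:136038246-136038280, plus strand) the match is on the opposite strand and starts 241 bases before the start of the gene in RefSeq, 136038496. In *Lrrn4* (chr2:132881033-132881078, minus strand) it starts 196 bases before the start in RefSeq, 132880862, which differs from the GENCODE end of the gene given above.
Upk3b: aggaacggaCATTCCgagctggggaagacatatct
Lrrn4: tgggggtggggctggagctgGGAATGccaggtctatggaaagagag

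A match to these letters describes the sequence and not a bound site.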

How the data were processed

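Strand-specific libraries of total RNA without ribosomal RNA were sequenced with paired-end reads and aligned to mm10 with TopHat2 2.1.0. Sequencing and alignment were done at Ocean Ridge Biosciences. The aligned reads were counted on exons with GenomicAlignments. What the authors deposited are raw whole-number counts for 28777 genes. Every gene in this set has 5 or more reads in total, and 0 mitochondrial genes are among them. Shares of all genes given above therefore cover only genes in this set. The annotation release, the strand setting of the counting and the treatment of overlapping genes are not given in the sources used here.

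The main test was the quasi-likelihood test of edgeR 4.0.16 under R 4.3.3, with limma 3.58.1 (voom) and DESeq2 1.42.0 as alternatives. A filter removed the 620 genes whose reads summed to 5 or less. TMM factors scaled the 28157 others, which were compared between libraries labelled mutant and wildtype, with p-values adjusted over all of them by Benjamini-Hochberg and a threshold of 0.05. The code was tested on simulated data. Positions and exon lengths came from GENCODE for mm10, which lacks 54 of the identifiers.

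Replicates are separate pools of embryos. The members and the gene lists were chosen with earlier results of these data known. All members are named, as are, from each further list, genes called by the main test (0) and the 3 highest and 3 lowest log2 fold changes among genes averaging 1 CPM or more. Some genes called only by an alternative are named too, picked with their values seen. The likeness rule names 5 genes. Alternatives were other tests, scalings and filters, a block on replicate numbers, a correction for GC content and gene length, pseudocounts of 0.1 and 2, and each library left out. The summed level of the gonad and kidney markers is not reported here.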

Additional observations from a re-analysis of the deposited data

How the results depend on the processing

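The counts of called genes and the log2 fold change of each member were recomputed under 16 alternatives. The median log2 fold change of the members ran from −0.28 to 0.14, and the number of members called was 0 in 15. Members with groups apart stayed at 0 under both other scalings.

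DESeq2's Wald test called 749 of all genes and 3 of the mesenchymal genes derived from the epicardium. The fitted log2 fold change of *Tcf21* turned to 0.00048 with limma-voom, to 0.0334 with the correction for GC content and length and to 0.10 with library size only, which also turned *Bnc1* to 0.0185 and *Krt19* to 0.0389. The cause was not tested.

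With the replicate block by the numbers in the titles, 1577 genes were called, with 0 members, 11 genes derived from the epicardium, 2 signalling genes and 1 relative, and *Tcf21* stood at 0.0046. With this replicate block and the GC content and length correction together, 2208 genes were called, with 0 members, 4 further epicardial genes, 11 derived genes, 2 signalling genes and 2 relatives, and *Tcf21* stood at 0.0442. Libraries with the same number in their titles had correlated deviations from their group means of 0.096, 0.159 and 0.42, and 4 of the 6 libraries correlated best with their own number, while wildtype replicate 1 and mutant replicate 2 correlated best with each other (0.277). The numbers were not taken to pair the libraries, since the first correlation is not over 0.1 and titles and descriptions disagree, and a shared batch was not tested otherwise. A replicate block by the numbers in the descriptions, chosen after seeing the data, called 83 genes and 0 members, with *Tcf21* at 0.0053.

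With each library left out in turn, the genes called ran from 1 to 2593, the members from 0 to 1, further epicardial genes from 0 to 3, derived genes from 0 to 11 and signalling genes from 0 to 2, the high values all without wildtype replicate 1. The log2 fold change ran from −0.0067 to 0.31 for *Wt1*, −0.13 to 0.17 for *Tcf21*, −0.069 to 0.19 for *Tbx18*, −0.30 to 0.23 for *Bnc1*, −0.45 to 0.16 for *Upk3b*, −0.43 to 0.14 for *Upk1b*, −0.55 to −0.09 for *Msln*, −0.26 to 0.089 for *Krt19* and −0.39 to 0.14 for *Lrrn4*. Outside *Msln*, the lowest adjusted p in these fits was 0.133, for *Krt19*.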
